A study of Mus musculus with 24 samples.

Results

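The genes described here are the GATA factors of blood and the proteins that bind DNA with them, or act on DNA through them: Gata1, Gata2, Zfpm1, Tal1, Lmo2, Ldb1, Lyl1, Gfi1b, Cbfa2t3 and Runx1. They were taken by symbol, and each matched 1 row of the deposited table, so 10 of 49585 gene rows were used. The values come from 24 single cells, sorted from fetal liver of C57/Bl6J mice at embryonic day 14.5 as burst-forming units-erythroid (BFU-E), the earliest progenitors committed to the red cell lineage. Cells bearing lineage antigens, Sca-1, CD16/32 or CD41 had been depleted beforehand, and the rest were stained for CD117, CD71 and CD24. All cells form 1 untreated group with no embryo named for any of them, so cells are not replicate animals and every value below describes these 24 cells.

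GATA1 and GATA2 are zinc finger proteins that bind the same short DNA motif. GATA2 serves stem and early progenitor cells, and as cells become erythroid GATA1 takes over many of its sites, an exchange known as the GATA switch that also silences Gata2. GATA1 works with its cofactor FOG1, encoded by Zfpm1, and with a complex in which the helix-loop-helix protein TAL1 and its E protein partner bind DNA while LMO2 and LDB1 bridge it to GATA1. LYL1 is the close relative of TAL1. GFI1B and ETO2, the latter encoded by Cbfa2t3, recruit repressors, and RUNX1 is a stem cell and megakaryocyte factor that associates with these proteins.

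The promoters of 3 members are shown because the results turn on them: Gata1 was either clearly present or missing, the 4 cells without it also lacked Tal1, and both cells without Gfi1b lacked Gata1. Each is the stretch of 250 bases before a transcription start, 5′ to 3′ on the gene's strand, from RefSeq on GRCm38.p6. Capitals mark matches to the GATA motif, searched on both strands as AGATAA or as AGATAG, and with the other first base as TGATAA or as TGATAG. The Gata1 window is chrX:7967911-7968160 on the minus strand, inside the longer gene model of GENCODE M21. The Gfi1b window is chr2:28621983-28622232 on the minus strand, and the Tal1 window chr4:115056176-115056425 on the plus strand belongs to the upstream of 2 starts.
Gata1: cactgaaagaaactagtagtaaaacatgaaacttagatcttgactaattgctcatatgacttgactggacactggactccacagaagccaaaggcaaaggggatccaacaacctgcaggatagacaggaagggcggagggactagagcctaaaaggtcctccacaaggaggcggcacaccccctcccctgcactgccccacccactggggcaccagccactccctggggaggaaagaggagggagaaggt
Gfi1b: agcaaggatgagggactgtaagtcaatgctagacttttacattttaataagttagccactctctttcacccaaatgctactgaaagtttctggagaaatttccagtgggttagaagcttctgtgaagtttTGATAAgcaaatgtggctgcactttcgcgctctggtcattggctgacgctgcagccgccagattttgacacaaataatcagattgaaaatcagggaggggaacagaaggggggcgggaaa
Tal1: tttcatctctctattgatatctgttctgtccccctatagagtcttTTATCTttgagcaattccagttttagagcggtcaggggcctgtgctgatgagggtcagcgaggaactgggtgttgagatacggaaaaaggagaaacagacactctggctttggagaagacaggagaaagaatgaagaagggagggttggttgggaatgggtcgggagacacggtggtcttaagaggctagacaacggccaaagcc
The Gfi1b promoter holds 1 match, which begins 120 bases before the start. The upstream Tal1 window holds 1, which begins 205 bases before its start and reads on the opposite strand. The window of the downstream Tal1 start, not printed, holds 0. These letters do not occur in the Gata1 window. RefSeq windows were matched for 9 members, 15 windows in all. Of the 15, 4 hold the GATA motif: those of Gfi1b and Tal1 above, 1 of Ldb1 and 1 of Cbfa2t3. Among all 32851 windows of that length 26.5% hold it, so the members stand at the background. The E-box CANNTG, the kind of site TAL1 and LYL1 bind with E proteins, was in 7 of 15 against 66.2%, and the CACCC-type motif CCNCNCCCN of Krüppel-like factors in 14 of 15 against 45.8%. The 3 motifs were searched separately and their matches may overlap.

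Total counts ran from 876983 to 2155010 per cell, and a gene was called detected at 5 counts or more. Levels are given as CPM, the counts scaled to the cell's total. A cell had 4767 to 7349 detected genes. Of 8 markers of the labelled type 7 were detected in at least 12 cells, Kit in all 24, while Slc4a1, the anion exchanger of later red cells, was detected in 0. Klf1, an erythroid factor known to be activated by GATA1, was under 10 CPM in 5 cells, numbers 1, 9, 19, 23 and 24, which stand apart. Results that rest on them are given with and without them, a choice made with earlier results of these data known.

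All 10 members were detected in at least 12 cells, as were 5962 of all 49585 gene rows. The same count stands beside the numbers of list genes in 12 cells given below. Gfi1b, Lmo2, Gata1 and Lyl1 were the most abundant for their length. Cells 10, 13, 16, 18, 20 and 21 had all 10 members, and 18 cells had 8 or more. At the other end cell 19 had 1 member, and cells 9 and 22 had 5 each. Cell 19 also had few detected genes, 4800, although cell 23 with 4767 held 7 members.

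**Figure D1:**
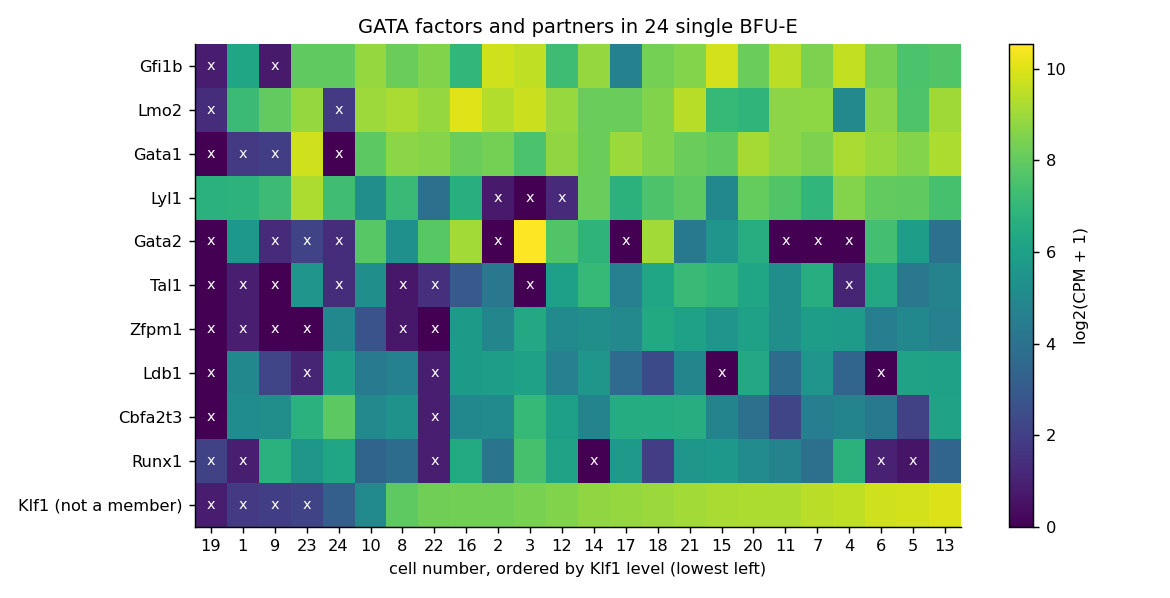
Level of each member in each cell, as log2(CPM + 1) on the colour scale, with cells from the lowest Klf1 on the left to the highest on the right; a cross marks under 5 counts. Crosses gather in the columns at the left, where cell 19 has 9 of 10 members undetected, while Lyl1 has no cross among the 5 cells lowest in Klf1.

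Gata1 (ENSMUSG00000031162, chromosome X, 7959260 to 7978071, minus strand, GRCm38) behaved as present or missing, with little between. It was detected in 20 of 24 cells (83.3%), and in those cells it ran from 188 to 886 CPM with a median of 387. In the other 4 cells, numbers 1, 9, 19 and 24, it was between 0 and 2.85 CPM, and the mean over all 24 was 344 ± 214 CPM (SD over cells, as throughout). No cell lay between 2.85 and 188 CPM.

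Gata2 (ENSMUSG00000015053, chromosome 6, 88193891 to 88207032, plus strand) was spread over a wider range without such a gap. Its lowest, median and highest values were 0, 41.5 and 1487 CPM. It was detected in 15 cells (62.5%, exact binomial 95% interval 40.6 to 81.2), from 14.8 CPM upwards. Cell 3 held the highest value, followed by cell 18 at 547 and cell 16 at 533 CPM, and without cell 3 the mean dropped from 159 ± 322 to 101 ± 158 CPM. The 9 cells without it were 2, 4, 7, 9, 11, 17, 19, 23 and 24, at 0 to 3.42 CPM. Of those, 6 carried Gata1.

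Gata1 and Gata2 were found together in 14 cells, Gata1 alone in 6, Gata2 alone in 1 and neither in 3. Per kilobase of merged exons, which allows levels of different genes to be compared, Gata1 was the higher in 20 of 24 cells. Those 20 include cell 9, where neither gene reached the detection limit. The exceptions with Gata2 above the detection limit were cell 3, with 275 CPM per kb of Gata2 and 76.9 of Gata1, and cell 1, with 9.02 and 1.02. In cell 1 Gata1 had 3 counts, under the limit. Cells 16 and 18 had close to equal levels, at 98.8 and 101 CPM per kb of Gata2 against 119 and 152 of Gata1. Of the 15 cells with Gata2, 14 thus held Gata1 as well.

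**Figure D2:**
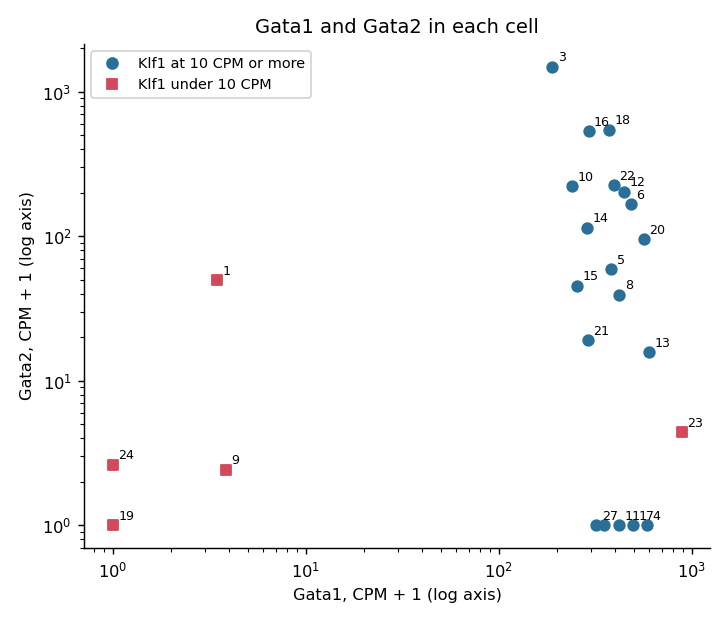
Gata1 against Gata2 in each cell, as CPM + 1 on log axes, with cell numbers; squares are the 5 cells with Klf1 under 10 CPM. Gata1 falls into a cloud from 188 to 886 CPM and 4 cells at the left edge, while Gata2 in the cloud runs from 0 to 1487 CPM.

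Zfpm1 (ENSMUSG00000049577, chromosome 8, 122282141 to 122337251, plus strand), whose product FOG1 binds the amino-terminal finger of GATA proteins, was a low transcript. Its lowest, median and highest values were 0, 29.8 and 82.6 CPM, and it was detected in 18 cells. It was missing from cells 1, 8, 9, 19, 22 and 23, at no more than 0.825 CPM in any of them. All but 1 of the cells with Zfpm1 also had Gata1, the exception being cell 24 at 29.2 CPM. Cell 23, with the highest Gata1 of all, had neither Zfpm1 nor Klf1 at 5 counts.

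Tal1 (ENSMUSG00000028717, chromosome 4, 115056426 to 115071755, plus strand) and Lyl1 (ENSMUSG00000034041, chromosome 8, 84701457 to 84704715, plus strand) encode related helix-loop-helix proteins and differed in where they were found. Tal1 ran from 0 through a median of 24.1 to 138 CPM and was detected in 16 cells (66.7%, exact binomial 95% interval 44.7 to 84.4). Every one of those 16 cells had Gata1, and the 4 cells without Gata1 had no Tal1 at 5 counts. The share of all genes that show this pattern is not given here. Lyl1 ran from 0 through 141 to 601 CPM and was detected in 21 cells, all 4 without Gata1 among them, at 113, 147, 104 and 158 CPM in cells 1, 9, 19 and 24.

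At least 1 of the pair was found in 23 cells, Lyl1 without Tal1 in 7 and Tal1 without Lyl1 in 2, and cell 3 lacked both. Per kb, Tal1 was above Lyl1 in 3 of 24 cells. Lyl1 lies within Nfix on the opposite strand, and reads of overlapping genes cannot be told apart without strand information. Nfix held 209 counts over all 24 cells and was detected in 6.

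Lmo2 (ENSMUSG00000032698, chromosome 2, 103957986 to 103981878, plus strand) and Ldb1 (ENSMUSG00000025223, chromosome 19, 46031570 to 46045214, minus strand), the bridging pair of the complex, were far apart in level. Lmo2 ran from 1.62 through 419 to 1037 CPM, was detected in 22 cells and was missing from cells 19 and 24. Ldb1 ran from 0 through 23.2 to 80.8 CPM, was detected in 19 cells and was missing from 6, 15, 19, 22 and 23. Per kb of exon Lmo2 averaged 179 ± 120 CPM and Ldb1 6.34 ± 5.70. The 5′ end of Ldb1 overlaps Pprc1, which held 2665 counts, and reads from the overlap cannot be told apart.

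The repressor genes were also unequal. Gfi1b (ENSMUSG00000026815, chromosome 2, 28609450 to 28621982, minus strand) ran from 0.712 through 304 to 890 CPM and was detected in 22 cells, missing only from cells 9 and 19, which also lacked Gata1. Cell 1 and cell 24, without Gata1, had 71.8 and 250 CPM. Cbfa2t3 (ENSMUSG00000006362, chromosome 8, 122625141 to 122699109, minus strand) was detected in 22 cells as well, but ran from 0 through 31.0 to 235 CPM. Its highest value was in cell 24, which had 0 counts of Gata1.

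Runx1 (ENSMUSG00000022952, chromosome 16, 92601466 to 92826149, minus strand) was the lowest member per length. It ran from 0 through 20.5 to 177 CPM and was detected in 18 cells. Cell 3 held its highest value as well as that of Gata2, but cells 9 and 4, at 106 and 107 CPM, had no Gata2 at 5 counts. Together Gata2 and Runx1 were found in 10 cells, Gata2 alone in 5, Runx1 alone in 8 and neither in 1.

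Ordered by mean level per kb, the members were Gfi1b (193 ± 145), Lmo2 (179 ± 120), Gata1 (141 ± 87.8), Lyl1 (91.0 ± 77.1), Gata2 (29.5 ± 59.7), Tal1 (9.36 ± 10.3), Zfpm1 (9.22 ± 7.51), Ldb1 (6.34 ± 5.70), Cbfa2t3 (6.05 ± 6.37) and Runx1 (3.25 ± 3.73). No neighbours in this order differed in mean by more than the larger of their SDs. The widest step, from Lyl1 to Gata2, was 0.798 of that SD, and Lyl1 was above Gata2 in 19 of 24 cells. Gfi1b was above Lmo2 in 11 cells and Tal1 above Zfpm1 in 9, so those orders are not settled cell by cell. By median, Lmo2 led Gfi1b and Zfpm1 moved ahead of Gata2 and Tal1. With the longest transcript in place of merged exons, Lmo2 again led Gfi1b, and Runx1 and Cbfa2t3 changed places.

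**Figure D3:**
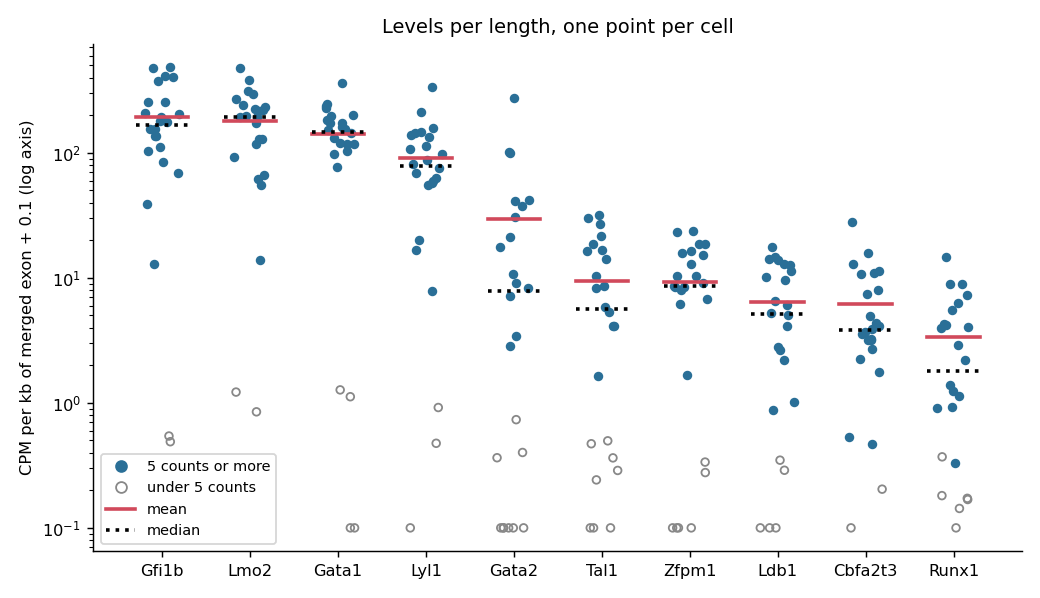
CPM per kb of merged exon plus 0.1, on a log axis, for each member; points are cells, open where the gene had under 5 counts, with mean (solid) and median (dotted) bars. Gfi1b, Lmo2, Gata1 and Lyl1 average 91.0 to 193 CPM per kb, and the 5 members at the right 3.25 to 9.36.

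The members also differed in how variable they were for their level. Among 8266 genes detected in at least 6 cells, ranked by the variance of log2(CPM + 1) above the trend with the mean, Gata1 stood 8th, Gata2 36th, Gfi1b 60th, Lmo2 115th and Lyl1 415th. These ranks use all cells, including those with Gata1 at 0 to 2.85 CPM. Ranks without the cells low in Klf1 are not given, so they do not describe the other cells alone. Tal1, Zfpm1, Runx1, Cbfa2t3 and Ldb1 ranked between 6675th and 7655th.

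The complex needs several of these products at once, and all its transcripts were detected in some cells only. Gata1, Tal1, Lmo2 and Ldb1 were all detected in 13 of 24 cells. All 13 had Zfpm1, which was detected in 18 of 24. Tcf3, the E protein gene whose product pairs with TAL1, was detected in all 24 cells. Lmo2 and Ldb1 were found together in 18 cells. With 10 counts required, or with every cell thinned to the total of the shallowest, the 4 genes met in 12 cells, and with 1 count in 18. A transcript under the detection limit says nothing of the protein.

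The 4 cells without Gata1 lacked different sets of the other members. Cell 19 kept only Lyl1, with 9 members at 0 to 3.24 CPM. Cell 9 kept Lmo2 at 256, Lyl1 at 147, Runx1 at 106 and Cbfa2t3 at 35.6 CPM, with Ldb1 at 5 counts. Cell 1 kept Gata2 at 48.7, Lmo2 at 145, Lyl1 at 113, Gfi1b at 71.8, Cbfa2t3 at 33.8 and Ldb1 at 29.7 CPM. Cell 24 kept Gfi1b, Cbfa2t3, Lyl1, Runx1, Ldb1 and Zfpm1 while Lmo2 stood at 2.44 CPM. Lyl1 was the member that all 4 shared.

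Markers of other blood and vessel cells were also present in those cells. Summed over 8 myeloid markers, Mpo and Prtn3 among them, cell 1 had 9234 CPM, the highest of all cells, against a median of 20.1, with Elane, Ms4a3 and Ly6c2 at 0 in every cell. Cell 9 had 973 CPM of these markers and the highest Cd34, at 1554 CPM. Cell 19 had the highest sums of 6 lymphoid markers (413 CPM, from Rag1 and Il7r) and of 5 endothelial markers (457 CPM, from Pecam1), with Cd3e, Cd79a, Dntt, Cdh5, Kdr and Emcn among those at 0. Cell 24 had the highest sum of 8 mast cell and basophil markers, 887 CPM, all from Cpa3, with Ms4a2, Fcer1a, Cma1, Prss34 and Gzmb at 0, and the highest Gata3, at 199 CPM. Such markers were not limited to cells without Gata1. Cell 23, with the highest Gata1, had 2812 CPM of the myeloid, 593 of the mast cell and 276 of the endothelial markers, and cells 6 and 22 had 429 and 388 of the mast cell markers. The part of these transcripts in the missing Gata1 was not tested.

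Klf1 followed Gata1 in most cells, with both detected in 19, neither in 3, Gata1 alone in cell 23 and Klf1 alone in cell 24, where it had 10 counts. Spearman rho between their CPM was 0.55 and Pearson r of log2(CPM + 1) was 0.79 over 24 cells. Without the 5 cells low in Klf1, rho was 0.48. Klf1 chose those cells, which narrows its own range. Those 5 also include every cell without Gata1, and cell 23, where Gata1 was highest. The cells left ran from 188 to 598 CPM of Gata1, so its range is narrowed as well in all results without those 5.

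Across cells the members' ranks were weakly related. Over the 45 member pairs the mean Spearman rho was 0.10 and the median 0.084, beside a mean of 0.0076 and a median of 0.0075 over all 34159245 pairs of genes detected in at least 6 cells, and 32 of the 45 were above 0. No member pair reached a rho of 0.5, against 0.956% of all pairs, and none fell to −0.5, against 0.765%, counts that so few pairs would also give at the background share. The 24 points differ in depth, and they are cells of unnamed embryos, so the correlations here and below are descriptions. Plate columns, used below, were read from the letter and number in the deposited cell names. That these give plate positions is an inference.

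On the log scale, where a missing transcript weighs more, 6 pairs reached an r of 0.5, against 1.38% of all pairs: Gata1 with Lmo2 (0.71), Gfi1b (0.64) and Tal1 (0.59), Zfpm1 with Gfi1b (0.54) and Tal1 (0.52), and Cbfa2t3 with Runx1 (0.51). Without those 5 cells 0 of 45 pairs reached 0.5, against 1.97% of all pairs, and 1 a rho of 0.5, Lmo2 with Cbfa2t3 at exactly that value, against 1.76%. In those 19 cells the r of Gata1 was −0.44 with Lmo2, −0.38 with Gfi1b, 0.019 with Tal1 and 0.47 with Lyl1, while Cbfa2t3 with Runx1 was 0.48 and Zfpm1 with Tal1 0.41. Without cell 19 alone 2 pairs were left.

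**Figure D4:**
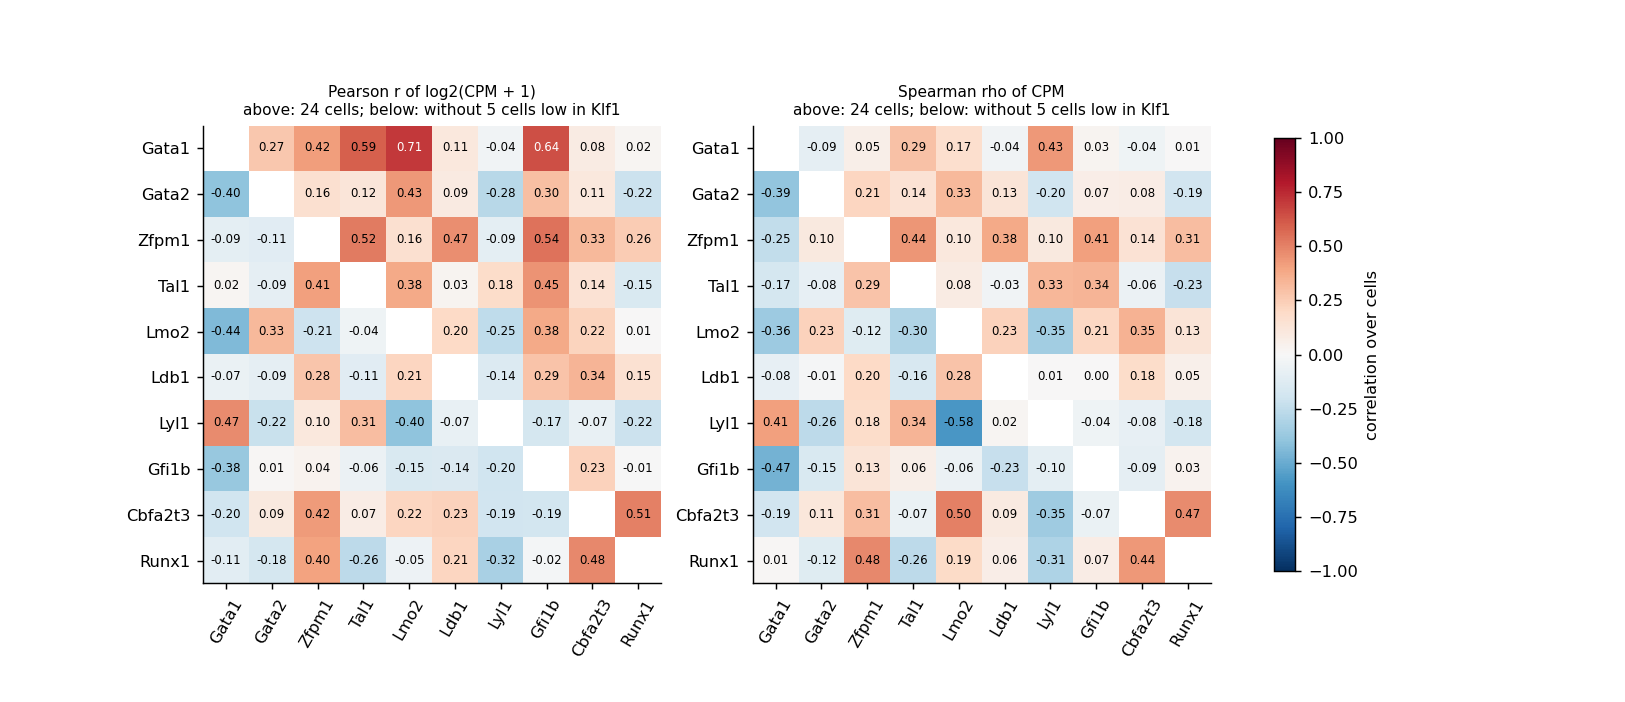
Correlation of each member pair over cells, Pearson r of log2(CPM + 1) on the left and Spearman rho of CPM on the right; above the diagonal all 24 cells, below it the 19 cells with Klf1 at 10 CPM or more. The strong r values of Gata1 with Tal1, Lmo2 and Gfi1b above the diagonal turn to 0.019, −0.44 and −0.38 below it. Every cell without Gata1 is left out below the diagonal.

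Gata1 and Gata2, the pair of the GATA switch, gave rho −0.087 and r 0.27, and r 0.020 without the 2 cells farthest from the median Gata1. Within plate columns 1, 2 and 3, of 8 cells each, rho was −0.049, −0.15 and 0.50. In the 14 cells with both it was −0.37, and without the 5 cells low in Klf1 it was −0.39. Gata1 with Zfpm1 gave rho 0.055 and r 0.42, Gata2 with Runx1 −0.19 and −0.22, and Tal1 with Lyl1 0.33 and 0.18. For Gata1 with Zfpm1, r was 0.44 without the same 2 cells. Without the 5 cells low in Klf1 that pair had r −0.095 and rho −0.25, and in the 17 cells with both genes rho −0.20.

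Some pairs were singled out after their values were seen. Cbfa2t3 and Runx1 had the highest rho, 0.47 (0.024, 0.52 and 0.48 within plate columns), and it was 0.44 without the 5 cells low in Klf1. Leaving out single cells moved it between 0.41 and 0.54. All 18 cells with Runx1 had Cbfa2t3, which was detected in 22 of 24 cells, and the share of all genes with such an overlap is not given here. In those 18 cells rho of the pair was 0.15. The next highest rho over 24 cells was that of Zfpm1 and Tal1, 0.44, or 0.60 without cell 3. Within plate columns it was 0.59, 0.62 and 0.24. Both are low transcripts whose CPM also rose with total counts (rho 0.45 for Zfpm1 and 0.37 for Tal1), and the part of depth in their relation was not tested. Gata1 and Lyl1 gave 0.43, or 0.41 without the cells low in Klf1, and 0.43, 0.26 and 0.36 within plate columns. Lmo2 and Lyl1 had the lowest rho, −0.35, which was −0.58 without the cells low in Klf1, where 1 of 45 pairs and 1.58% of all pairs fell to −0.5. Within plate columns it was −0.31, −0.48 and −0.14.

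Genes that GATA1 is known to activate were largely present, and few of them tracked Gata1 level. Of 38 such genes 21 reached 12 cells, with the highest levels per kb in the carbonic anhydrases Car1 and Car2 and in Klf1. Late targets were at or near 0: Alas2, which starts erythroid haem synthesis, was detected in 2 cells, the skeletal gene Epb42 in 1 and Slc4a1 in 0. Of the 21 genes, 3 had a rho of at least 0.5 to Gata1, against 1.34% of the other genes detected in at least 12 cells. These were Klf1 (0.55), the red cell membrane gene Ermap (0.52) and Alad, the second enzyme of haem synthesis (0.51). The median rho of the 21 was 0.28, beside 0.037 over all such genes, and 18 of the 21 were above 0.

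The relation changed with the cells used. Leaving out the 5 cells low in Klf1, which include every cell without Gata1, the median was 0.14, beside 0.012 over all genes. In the cells left, 0 of 21 reached 0.5, against 1.7%. Leaving out cell 1, 9 or 19 singly also left 0. Leaving out cell 23, which had the highest Gata1 and no Klf1, left 6: Klf1 at 0.70, Alad at 0.65, Ermap at 0.61, Blvrb, a biliverdin reductase, at 0.60, and the haem synthesis genes Cpox at 0.59 and Fech at 0.52. Within plate columns 1, 2 and 3 the median was 0.61, −0.29 and 0.43, beside 0.11, −0.048 and 0.048 over all genes.

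**Figure D5:**
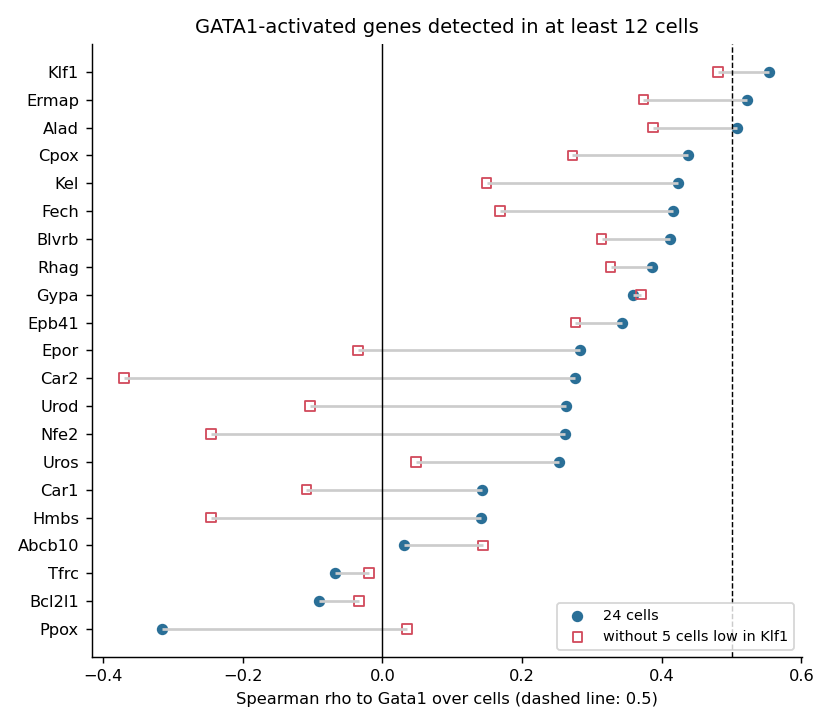
Spearman rho to Gata1 over cells for each of 21 GATA1-activated genes; circles use 24 cells and squares the 19 cells left after taking out 5 low in Klf1. Klf1, Ermap and Alad lie past the dashed line at 0.5 with 24 cells, and no square does.

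Of the 21 genes, 2 had a rho of at least 0.5 to Gata2 instead, against 0.991% of all such genes. These were Nfe2, a subunit of the factor NF-E2 (0.61, and 0.70 without the cells low in Klf1), and Car1 (0.57, and 0.53), the 2 genes of the list past 0.5 in those 19 cells too, against 2.54%. In the same 19 cells 4 of the 21 were at or under −0.5 to Gata2, against 3.9%: Blvrb (−0.70), the blood group gene Kel (−0.69), Cpox (−0.67) and Alad (−0.51), which over 24 cells had −0.25, −0.26, −0.21 and −0.092. Over 24 cells Nfe2 and Car1 had a rho of 0.26 and 0.14 to Gata1. For Blvrb, Kel, Cpox and Alad it was 0.41, 0.42, 0.44 and 0.51. The globin gene Hba-a1, found in 9 cells, had −0.50 to Gata2, but it was at most 30.4 CPM and its reads can be split with a near-identical copy. The median rho of the 21 genes to Gata2 was −0.079, beside 0.0033 over all such genes, and −0.30, beside −0.027, without the cells low in Klf1.

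Progenitor genes linked to GATA2 were mostly present. Of 20 genes 11 passed detection in 12 cells or more, with the highest levels per kb in Myc, Myb and Kit, and 0 of 11 had a rho of at least 0.5 to Gata2, against 0.991% of all such genes, a share at which so few genes would also give 0. Their median was 0.013 to Gata2 and −0.20 to Gata1, beside 0.0033 and 0.037 over all such genes. Kit and Myc, at −0.025 and 0.013 to Gata2, were in all 24 cells, including those without either GATA factor. Erg, an ETS factor of stem cells found in 4 cells, had the lowest rho of the list to Gata1, −0.62 (−0.40 without the cells low in Klf1), and it had 0 counts in 19 cells.

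Most paralogues of the members were not detected. Of 16 measured, Gata4, Gata5, Gata6, Zfpm2, Tal2, Nhlh1, Lmo3, Ldb2, Gfi1 and Runx1t1 were at 0 counts throughout, a limit of 3.42 CPM in the cell with the lowest total. Lmo4 was detected in 16 cells at 20.4 ± 25.2 CPM, Cbfa2t2 in 17 at 48.6 ± 44.6 and Runx3 in 13 at 47.1 ± 67.8, and none of these 3 had a rho of 0.5 to either GATA factor. Gata3 was found in 2 cells, Lmo1 in 1 and Runx2 in 0. The absence of Gfi1, the paralogue used by myeloid and lymphoid cells, contrasts with Gfi1b in 22 cells.

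Partner genes varied in how widely they were detected. Among 10 DNA-binding and adaptor partners 9 reached 12 cells, and the highest per kb were the E protein gene Tcf3 (230 ± 117 CPM, 24 cells), the LDB1-stabilising Ssbp4 (88.8 ± 71.2, 21 cells) and Cbfb, the partner of RUNX proteins (77.2 ± 76.4, 22 cells). Of 21 co-repressor and co-activator genes 18 were so detected, led per kb by Rbbp7 (697 ± 287 CPM), Mta2 (313 ± 122) and Hdac2 (319 ± 185), subunits of histone deacetylase complexes. Kdm1a, the demethylase recruited by GFI1B, was in 18 cells at 41.9 ± 46.5 CPM. In the 2 lists 0 of 9 and 0 of 18 genes had a rho of at least 0.5 to Gata1, against 1.34% of all genes, which so short lists would also show at that share. Mbd3, a subunit of the NuRD complex that FOG1 binds, was the only one of the 18 at or under −0.5, with −0.53 (−0.26 without the cells low in Klf1), against 0.588% of all genes.

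For each member the 3 genes of most similar rank pattern were listed, out of genes detected in at least 12 cells. They are the extremes of a list of 5952 genes, of which 1.34% had a rho of at least 0.5 to Gata1, 0.991% to Gata2, 2.03% to Zfpm1, 2% to Tal1, 1.39% to Lmo2, 1.16% to Ldb1, 0.941% to Lyl1, 1.93% to Gfi1b, 0.924% to Cbfa2t3 and 0.756% to Runx1. Gata1 was most like Add1, a subunit of adducin in the membrane skeleton (0.75), the respiratory chain gene Uqcrc1 (0.73) and Ccdc47 (0.72). For Gata2 these were Rtf2 (0.80), Iffo1 (0.75) and Etfb (0.74), for Zfpm1 the helicase genes Wrn (0.74) and Ddx41 (0.73) with Coa6 (0.73), and for Tal1 Poldip2 (0.70), Tex10 (0.68) and Dnajc30 (0.67).

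Lmo2 was most like Stxbp2 (0.70), the chromatin protein gene Hmgb2 (0.69) and Ap2m1 (0.67), and Ldb1 like Aars2 (0.74), Clstn1 (0.69) and Tbrg1 (0.69). For Lyl1 they were Spg20 (0.70), Ier3ip1 (0.70) and Pigu (0.68). Gfi1b was most like the methyltransferase gene Nsun5 (0.76), the initiation factor gene Eif2s2 (0.74) and Arhgap1 (0.73), Cbfa2t3 like Coa4 (0.82), Crot (0.67) and Rcn2 (0.66), and Runx1 like Coq2 (0.69), Zfp646 (0.66) and Thoc7 (0.63). Coa4 with Cbfa2t3 kept 0.81, 0.88 and 0.76 within plate columns 1, 2 and 3, and Rtf2 with Gata2 kept 0.93, 0.85 and 0.83. Add1 with Gata1 had 0.93, 0.14 and 0.92. None of the 30 belongs to the lists of targets and partners used here.

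Markers of other lineages moved with some members over all cells. The sum of 10 megakaryocyte markers had rho 0.51 with Gata2, 0.50 with Lmo2, 0.49 with Cbfa2t3 and 0.41 with Runx1, and 0.57, 0.49, 0.41 and 0.33 without the cells low in Klf1. It ran the other way with Tal1, at −0.27, and Lyl1, at −0.30, and at −0.53 and −0.47 without those cells. That sum ran from 0 to 1017 CPM with a median of 124, 6 of the 10 genes were detected in some cell, and Pf4, Ppbp, Gp6 and Clec1b had 0 counts in every cell. The myeloid sum, from 0 to 9234 CPM, had rho −0.60 with Tal1, −0.44 with Zfpm1 and −0.40 with Gata1, and −0.46, −0.063 and −0.29 without the cells low in Klf1, where it had 0.68 with Lmo2 (0.15 over 24 cells). The hepatocyte sum of 8 genes ran from 3.92 to 1281 CPM, highest in cell 10, and had rho −0.49 with Zfpm1 and −0.41 with Gfi1b, or −0.36 and −0.23 without the cells low in Klf1. Of 6 macrophage markers Cd68 was detected in 1 cell and the other 5 had 0 counts. The part of these transcripts in the members' levels was not tested.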

How the data were processed

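Smart-seq2 libraries, which copy polyadenylated RNA along its length and amplify it without molecular identifiers, were made from 24 sorted cells and sequenced without strand information, per the labels' protocols. The authors deposited raw read counts per Ensembl gene. Per the submitters' processing notes, the tools were STAR 2.4 and featureCounts and the build GRCm38; counting options: not given in the sources used here. GENCODE M21 supplied symbols (for 49326 of 49585 gene rows), coordinates and exon lengths.

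Counts were scaled to CPM by each cell's total (876983 to 2155010). Detection needed 5 counts. A count of 0 allows up to 3 counts, or 1.39 to 3.42 CPM, and these floors cover counting error only. The binomial intervals of detection treat cells as independent draws, which cells of unnamed embryos may not be. They do not describe variation between animals. Correlations are Spearman rho of CPM and Pearson r of log2(CPM + 1), and 0.5 marks a strong one (values within 1e-09 of it included). No p-value was made from cells, and no doublet caller was run. Pairs used genes in at least 6 cells (8266) and lists genes in at least 12. The variance trend is a lowess fit with span 0.3.

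Members, lists and thresholds were chosen with earlier results of these data known. By rule the text names the members, the 3 genes most like each, the 3 highest of each of 5 lists per kb and list genes with an absolute rho of 0.5 to Gata1 or Gata2. Other genes and pairs were named after their values were seen. A marker gene of the lymphoid list is not reported here. Alternatives were edgeR 4.0.16 TMM and DESeq2 1.42.0 size factors, thinned counts, other detection limits, depth-corrected rho and left-out cells. Code ran in Python 3.11.15 and was tested on simulated data.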

Additional observations from a re-analysis of the deposited data

How the results depend on the processing

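Per kb of the longest transcript, Runx1 was 6.67 in place of 3.25 CPM and Gata2 44.5 in place of 29.5, and without cell 3 the mean of Gata2 was 101 in place of 159 CPM. The 10 members stayed in at least 12 cells at 1, 5 or 10 counts and with thinned counts. Co-variation also moved, and the cause was not tested. The mean rho of the members, 0.10, was −0.015 without the 5 cells low in Klf1, 0.29 and −0.013 within plate columns 1 and 2, and 0.025 to 0.12 when single cells were left out. Member pairs at a rho of 0.5 numbered 0, but 1 with DESeq2 size factors (Gata1 with Lyl1), 1 with thinned counts (Cbfa2t3 with Runx1), 1 without the cells low in Klf1 (Lmo2 with Cbfa2t3), 6 and 4 as Pearson r with a pseudocount of 1 or 10, and 0 to 2 without single cells. Within plate columns 1, 2 and 3 they numbered 13, 7 and 9, where 11.9%, 11.1% and 10.9% of all pairs reach 0.5 over 8 cells. Gata1 with Gata2 went from −0.087 to −0.39 without the cells low in Klf1, 0.50 within plate column 3, 0.27 and 0.22 as r with a pseudocount of 1 or 10 and −0.37 in cells with both, an alternative added after seeing the data, and stayed between −0.20 and −0.003 without single cells. GATA1-activated genes at 0.5 to Gata1 numbered 3, but 0 without the cells low in Klf1, 12 and 9 within plate columns 1 and 3 (17.6% and 12.6% of all genes), 1 after correction for depth, and 0 to 6 without single cells. GATA2-linked genes at 0.5 to Gata2 numbered 0, also without any single cell, but 3 within plate column 3, against 11.4% of all genes. No paired analysis was possible because there is 1 group.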
